A study of Mus musculus with 6 samples.

Results

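The cytosolic ribosome makes all cellular protein outside mitochondria, and its protein components are encoded by the Rpl genes of the large subunit and the Rps genes of the small subunit. The 84 genes described here are the rows of the deposited table whose symbols follow the naming pattern of cytosolic ribosomal proteins, out of 24410 gene symbols in all. They comprise 51 large subunit genes and 33 small subunit genes. The rule uses symbols only and no measured value, although the gene family was picked for description with earlier results of these data known.

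RNA was sequenced from 6 libraries of C57BL/6 mouse bone marrow cells, 3 wild type (WT 1 to WT 3) and 3 from Txnip -/- mice (KO 1 to KO 3), all from mice aged 5 months. In both groups, marrow cells without markers of mature blood lineages (Lineage- cells) were expanded for 3 days in SFEMII medium with supplements that included 10% FBS and 100 ng/mL Scf, and CD41+ cells were then sorted. Scf is stem cell factor and CD41 is a surface protein of megakaryocytes and some progenitors, so the sorted cells are a culture product and not fresh marrow megakaryocytes. Nothing in the labels says whether a library came from a single mouse or a pool. The p-values therefore reflect the variation among these libraries only, and that variation may be technical in part. The series title places the comparison within the question of how TXNIP bears on megakaryocyte development and platelet production.

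Ribosomal proteins are made in large and roughly matched amounts because each ribosome needs a set of them. Most of their messenger RNAs start with a pyrimidine tract, the TOP motif, through which the mTOR pathway controls their translation, and cells that grow or divide quickly devote much of their RNA to them. Blood formation is sensitive to their dose: loss of a single copy of certain members causes Diamond-Blackfan anaemia in humans, and loss of RPS14 is part of the 5q- syndrome. Txnip encodes a protein that binds thioredoxin and restrains glucose uptake.

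The deleted gene was read first as a check of the labels. Txnip stood at 112, 228 and 143 FPKM in the WT libraries and was listed at 0, 0.04 and 0 in the KO libraries. FPKM is the number of fragments per kilobase of transcript, scaled to the total of mapped fragments. The marker of the sort, Itga2b (CD41), ranged from 83.2 to 111 FPKM in WT and from 92.8 to 152 in KO, and Pf4, a platelet chemokine, from 465 to 1435 in WT and from 476 to 1545 in KO. Libraries numbered 1 and 2 contained the Y-linked Ddx3y in both genotypes, and libraries numbered 3 contained Xist in both. Sex was thus matched within each number, while within each genotype number 3 differed in sex from numbers 1 and 2. The spread within a genotype includes that difference. Depth is not stated in the table. The spacing of its low values corresponds to between 14500000 (KO 1) and 25900000 (KO 3) fragments, an approximation because the transcript lengths came from another annotation.

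Ribosomal protein genes were among the most abundant transcripts of these cells. Of the 100 rows with the highest mean FPKM over the 6 libraries, 57 were members, and 65 members averaged 1000 FPKM or more. At least 1 FPKM in at least 3 libraries was required for testing, and 81 members passed, 48 of the large and 33 of the small subunit. Their median level was 2098 FPKM, with quartiles of 1202 and 2638, against a median of 14.0 FPKM over all 11249 genes that passed. The 2 subunits had similar medians, 2053 FPKM for large and 2127 for small subunit members.

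The highest level belonged to Rps12, a small subunit protein, with 3883, 9666 and 6275 FPKM in WT 1, 2 and 3 and with 3372, 8367 and 5229 in KO 1, 2 and 3. Rps23, which lies near the decoding centre, averaged 4866 ± 2438 FPKM in WT against 4155 ± 2005 in KO (SD, n = 3 per genotype). Rps18 averaged 4750 ± 2880 in WT against 3523 ± 1742 in KO (SD, n = 3 per genotype). In all 3 genes the library numbered 2 was the highest of its genotype and the library numbered 1 the lowest, and the genotypes overlapped.

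The 3 members that were not tested are paralogs with restricted expression. Rpl10l, a testis paralog of Rpl10, was listed at 0 in all libraries, Rpl3l, a muscle paralog of Rpl3, reached at most 0.47 FPKM, and Rpl39l, a testis paralog of Rpl39, at most 1.29 FPKM. The lowest tested members were Rps4l at a mean of 7.92, Rps27 at 9.48 and Rpl7l1 at 73.9 FPKM. Rpl7l1 is a paralog of Rpl7, and Rps4l is an autosomal copy of the X-linked Rps4x. Rps27 has a far more abundant row of identical coding sequence, shown with the sequences that follow.

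Ribosomal protein genes have many processed copies in the genome, and a short read from the shared stretch cannot be placed with certainty in either. Coding sequences of 83 members from GENCODE vM21 (GRCm38) were compared with the transcripts that this release lists under the symbols of the other rows of the table. Rows with a symbol absent from the release could not be searched. In 10 members another row was at least 98% identical over at least 90% of the coding sequence, and in 4 of them that row, not the member, carried most of the signal. The stretches of 60 bases below show how little separates these 4 from their copies. Capitals mark the base that differs within the stretch, and the Rps27 pair has none.
Rpl26: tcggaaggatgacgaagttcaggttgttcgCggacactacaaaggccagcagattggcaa
Gm15772: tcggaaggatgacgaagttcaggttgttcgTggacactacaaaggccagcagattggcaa
Rpl30: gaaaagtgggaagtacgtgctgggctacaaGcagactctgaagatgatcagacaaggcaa
Gm12191: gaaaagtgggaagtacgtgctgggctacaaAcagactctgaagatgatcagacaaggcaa
Rpl34: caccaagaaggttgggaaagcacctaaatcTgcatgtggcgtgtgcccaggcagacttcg
Rpl34-ps1: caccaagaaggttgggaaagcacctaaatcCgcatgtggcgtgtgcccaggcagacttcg
Rps27: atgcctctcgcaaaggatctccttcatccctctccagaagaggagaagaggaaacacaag
Rps27rt: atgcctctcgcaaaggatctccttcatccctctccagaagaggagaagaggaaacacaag

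Positions of substitutions are counted from 1 at the first base of the member's start codon, with the member's base first. Over the 435 coding bases of Rpl26, on chromosome 11, the processed pseudogene Gm15772 on chromosome 5 differed by C177T and T288C. Gm12191 (chromosome 11) differed from the 345 coding bases of Rpl30 (chromosome 15) by G96A, and Rpl34-ps1 (chromosome 6) from the 351 coding bases of Rpl34 (chromosome 3) by T132C and C318G. Both are annotated as processed pseudogenes. Rps27rt on chromosome 9, annotated as protein coding, matched all 252 coding bases of Rps27 on chromosome 3.

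The copies outweighed their members in every library. Rps27 stood at 5.20, 11.6 and 13.4 FPKM in WT and 5.88, 10.1 and 10.7 in KO, while Rps27rt stood at 2366, 9142 and 3677 in WT and 1868, 4917 and 3113 in KO. Rpl26, a large subunit protein beside the exit of the peptide tunnel, averaged 132 FPKM against 4245 for Gm15772. Rpl30 averaged 75.8 against 2200 for Gm12191, and Rpl34 averaged 182 against 2488 for Rpl34-ps1. Expressed per member plus copy, Rpl26 received between 1.55% and 6.14% of the sum and Rps27 between 0.127% and 0.363%. The values of these 4 genes are uncertain, since the authors' estimation could divide reads between such rows, and their differences are given later both alone and as sums. The other 6 such copies were low, from 0.00167 to 0.0374 times the mean level of their member.

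**Figure D1:**
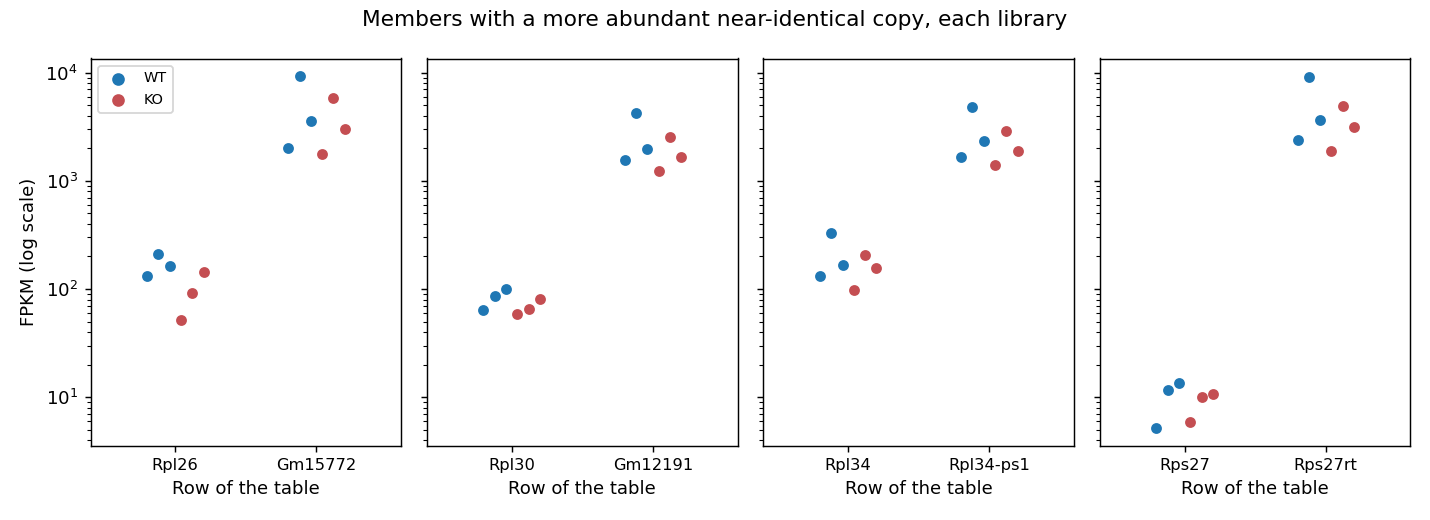
FPKM of the 4 members with a more abundant near-identical copy and of that copy, on a log scale, with a point for each library (WT blue, KO red, numbers 1 to 3 from left to right within a genotype). In each panel all 6 points of the copy lie above all 6 points of the member.

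The level of the members as a group differed between libraries of the same genotype. For each gene, log2(FPKM + 1) was taken relative to its own mean over the 6 libraries, and the median over the 81 tested members was computed per library. This median was −0.35 in WT 1, 0.60 in WT 2 and 0.11 in WT 3, and −0.66 in KO 1, 0.50 in KO 2 and −0.15 in KO 3. FPKM was taken as deposited, and its total was 1131640 in WT 2 and between 715205 (KO 3) and 805730 (KO 2) in the other libraries. On this scale, libraries numbered 1 were low and libraries numbered 2 high in both genotypes. Over all tested genes the same medians lay between −0.15 (WT 2) and 0.12 (KO 1). KO 1 held the lowest value of 74 of the 81 members, WT 2 the highest of 46 and KO 2 the highest of 30. The ratio of highest to lowest library had a median of 2.64 over members, from 1.41 in Rpl7l1 to 13.2 in Rps16.

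**Figure D2:**
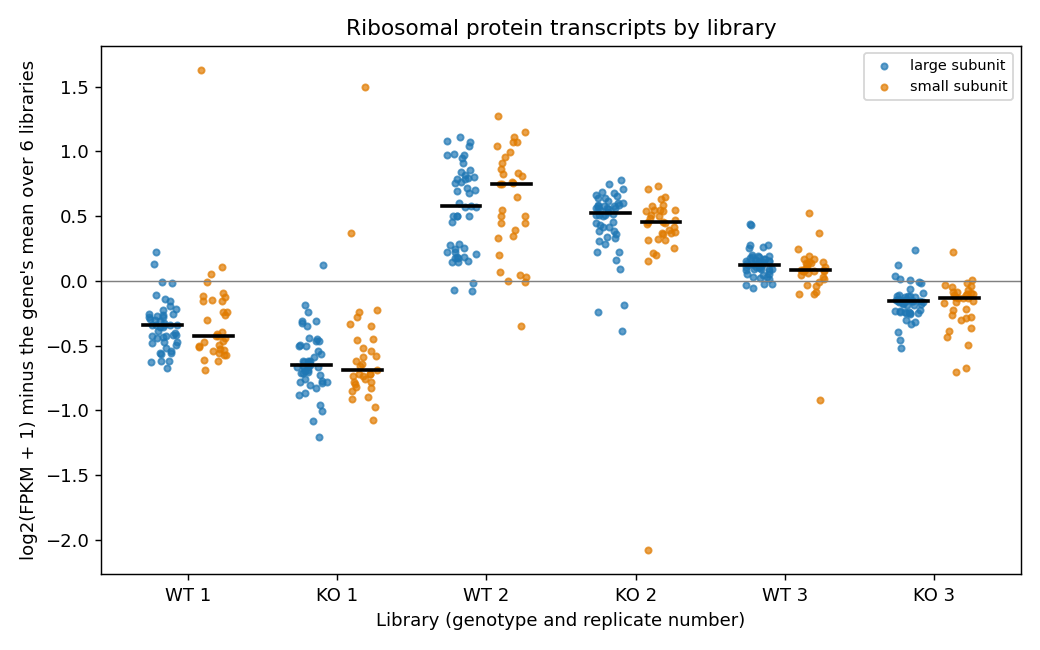
Level of each tested member in each library, as log2(FPKM + 1) minus the gene's mean over the 6 libraries, with large subunit members in blue, small subunit members in orange and medians as black bars. Libraries numbered 1 sit low and those numbered 2 high in both genotypes, and Rps16 is the isolated point at the top of WT 1 and KO 1 and at the bottom of KO 2.

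The sums here hold the members' own rows and leave out their near-identical copies. Of these, Rps27rt stood at 9142 FPKM in WT 2 and 1868 in KO 1, and Gm15772 at 9294 and 1753. Summed over all 84 members, ribosomal protein transcripts made up 16.8%, 21.5% and 22.6% of the FPKM total in WT 1, 2 and 3. In KO 1, 2 and 3 they made up 14.0%, 27.1% and 19.2%. The genotypes overlapped fully, with 20.3% ± 3.07 in WT against 20.1% ± 6.60 in KO (SD, n = 3 per genotype). A pair of short noncoding RNAs, Rpph1 of RNase P and Rmrp of RNase MRP, took 30.4% of the WT 2 total and between 10.7% and 20.6% of the others, and these RNAs enter the denominator. With them left out of the total, the share was 25.3% ± 5.47 in WT against 23.5% ± 6.48 in KO (SD, n = 3 per genotype).

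The balance of the subunits varied much less than their level. The log2 ratio of summed small to summed large subunit FPKM, again without copies, was −0.24, −0.14 and −0.29 in WT 1, 2 and 3. In KO 1, 2 and 3 it was −0.27, −0.31 and −0.24. The means were −0.23 ± 0.08 in WT against −0.27 ± 0.04 in KO (SD, n = 3 per genotype), so the difference of −0.05 was within the spread of the libraries. It was −0.0043 without WT 2, −0.029 without KO 2 and −0.080 without WT 3.

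Within each genotype, markers of megakaryocytes and of stem and progenitor cells followed the library order of the members' median level, in FPKM as deposited. By share of the FPKM total, the members stood lower in WT 2 (21.5%) than in WT 3 (22.6%). The summed FPKM of 15 megakaryocyte markers was 675, 1824 and 1423 in WT 1, 2 and 3 and 713, 1921 and 1064 in KO 1, 2 and 3. That of 9 stem and progenitor markers was 266, 357 and 285 in WT and 216, 350 and 262 in KO. Their part in the levels of the ribosomal protein transcripts was not tested. In bulk RNA, fewer cells of a type and less RNA per cell cannot be told apart.

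Between genotypes, the means of most ribosomal protein transcripts were slightly lower in KO, and no member passed the test. Differences here are KO minus WT of the mean log2(FPKM + 1), a scale that understates the change of low genes, and a lower mean is a lower mean on this scale. Of the 81 tested members 74 had a lower mean in KO, among them 45 of 48 large and 29 of 33 small subunit members, against 36.6% of all genes tested. The median difference was −0.23 for the large subunit and −0.23 for the small subunit, against 0.06 for all genes tested. In limma with Benjamini-Hochberg adjustment 0 members had an adjusted p under 0.05, and 0.0178% of all genes did in either direction. At an unadjusted p under 0.05 there was 1 member, Rpl26, lower in KO, against 0.267% of all genes lower in KO, and 0 members were higher, against 0.409%.

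No member separated the genotypes completely. In 0 members did all KO libraries lie below all WT libraries, against 1.03% of all genes tested, and in 0 members did they all lie above, against 3.32%. The median difference also depended on single libraries. Without WT 2 it was 0.01 for the large and 0.04 for the small subunit, without KO 1 it was 0.06 and 0.05, and without KO 2 it was −0.55 and −0.51.

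The replicate numbers allow a closer comparison, since libraries of the same number deviated together. Lower in KO in all 3 pairs were 46 of the 81 members, 27 large and 19 small, against 8.68% of all genes tested. Higher in KO in all 3 pairs were 0 members, against 20.4% of all genes. With the replicate number as a block in limma, 0 members again passed adjustment, against 0.0267% of all genes in either direction, and 16 members had an unadjusted p under 0.05, all lower in KO, against 2.28% of all genes lower and 4.66% higher in KO. Block fits that left out a pair called 1 member without pair 1 (0.24% of all genes called lower), 4 without pair 2 (0.427%) and 2 without pair 3 (0.444%). Such fits keep 1 residual degree of freedom per gene and borrow most of the spread from other genes. Without pair 1 or without pair 3 the spread came wholly from other genes, so the gene's own variation between pairs did not enter. Rps3a1, Rps26, Rpl26 and Rpl36 were called without pair 2, Rps16 and Rpl26 without pair 3, and Rps16 without pair 1.

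The pairs differed in how uniform the members were. In pair 1, 78 of the 81 members were lower in KO, against 44.5% of all genes, with a median difference of −0.27 and quartiles of −0.33 and −0.19. In pair 3, 79 members were lower, against 42% of all genes, with a median of −0.27 and quartiles of −0.35 and −0.21. In pair 2, 49 members were lower and 32 higher, against 41.1% of all genes lower, with a median of −0.15 and quartiles of −0.40 and 0.23. Among the members on the low side of pair 2 were Rps16 at −2.63, Rpl22l1 at −1.32, Rpl26 at −1.18 and Rps3a1 at −0.90, and on the high side Rps4l at 0.79, Rpl24 at 0.57, Rpl6 at 0.51 and Rplp2 at 0.50. WT 2 of that pair is also the library with the largest share of Rpph1 and Rmrp, and the part of that share in the split was not tested.

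**Figure D3:**
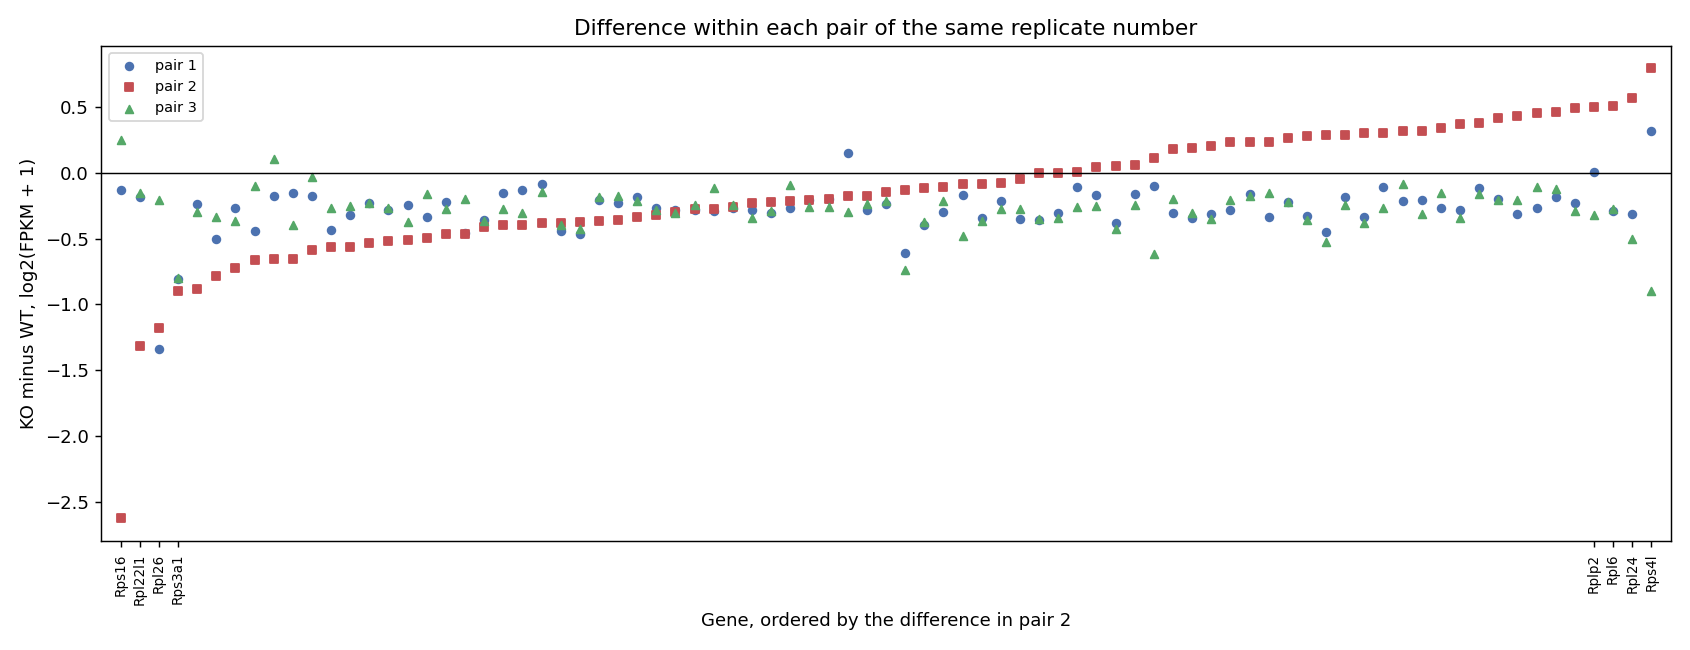
KO minus WT difference of log2(FPKM + 1) for each of the 81 tested members within pair 1 (blue circles), pair 2 (red squares) and pair 3 (green triangles), ordered by pair 2, with names at the 4 lowest and 4 highest differences of pair 2. Pairs 1 and 3 form a band mostly below 0, with medians of −0.27 each, while pair 2 runs from −2.63 to 0.79.

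Rps3a1 encodes a small subunit protein that lies close to where initiation factors bind. Its FPKM was 2266, 6059 and 3522 in WT 1, 2 and 3 and 1292, 3245 and 2020 in KO 1, 2 and 3. Each KO library was lower than the WT library of the same number by a similar amount, −0.81, −0.90 and −0.80 in pairs 1, 2 and 3, although the groups overlapped. The difference of means was −0.84 (SE 0.48), with a limma adjusted p of 1.00. With the replicate block the SE was 0.16 and the adjusted p 0.382, the lowest of any member. Relative to the median member of each library the difference was −0.69 (SE 0.25), adjusted p 1.00 in limma. Without the block, leaving out WT 2 or KO 1 gave −0.47 or −0.51. No near-identical copy of Rps3a1 was found among the rows that could be searched.

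Rpl26 had the largest difference of means among the tested members. It stood at 132, 210 and 164 FPKM in WT and at 51.8, 92.2 and 142 in KO, where KO 3 exceeded WT 1. The difference was −0.91 (SE 0.36), with a limma p of 0.0334 and an adjusted p of 1.00. Without KO 1 it was −0.53. Summed with Gm15772 the difference was −0.39 (SE 0.63). The gene's own row thus gave a larger difference than member and copy together. Likewise with the copy, the difference of Rps27 was −0.49 (SE 0.57) in place of −0.11 (SE 0.37), that of Rpl30 was −0.44 (SE 0.45) in place of −0.28 (SE 0.24), and that of Rpl34 was −0.42 (SE 0.47) in place of −0.40 (SE 0.39). The row of Rpl34 alone gave −0.02 without WT 2, −0.11 without KO 1, −0.67 without WT 1 and −0.65 without KO 2.

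Rps26 and Rps29 are small subunit proteins at the messenger RNA exit and in the head of the subunit. Rps26 stood at 1822, 2597 and 2175 FPKM in WT and at 1194, 2367 and 1300 in KO. KO 1 and KO 3 lay below every WT library and KO 2 did not, and the difference was −0.50 (SE 0.36). Rps29 stood at 2623, 5816 and 2856 FPKM in WT and at 1847, 3379 and 2265 in KO. KO 1 and KO 3 lay below all WT libraries, and the difference was −0.54 (SE 0.43). Neither passed in limma, with an adjusted p of 1.00 each. Rps26 was at −0.31 without KO 1 and −0.80 without KO 2, and Rps29 at −0.18 without WT 2 and −0.35 without KO 1.

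Rpl22l1 is a paralog of Rpl22 that can take its place in the large subunit, and the pair has separate roles in blood cell development. Rpl22l1 stood at 249, 717 and 387 FPKM in WT and at 219, 287 and 347 in KO, a difference of −0.55 (SE 0.38). Pairs 1 and 3 differed by −0.19 and −0.16, so that most of the difference came from pair 2, and it was −0.15 without WT 2 and −0.91 without WT 1. Of the summed FPKM of Rpl22 and Rpl22l1, Rpl22l1 took 57.3%, 59.5% and 56.8% in WT and 56.7%, 43.7% and 58.9% in KO. KO 2 alone stood apart, and the means of 57.9% ± 1.46 and 53.1% ± 8.19 (SD, n = 3 per genotype) overlapped. Without KO 2 the means differed by −0.078 percentage points.

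The other paralogs were minor partners. Rps27l took 8.09% ± 1.87 in WT and 8.57% ± 0.638 in KO of the sum with Rps27 and Rps27rt (SD, n = 3 per genotype), and the difference of these means was −0.59 percentage points without WT 2 and 1.17 without WT 1. Rpl7l1 took 2.36% ± 1.17 of the sum with Rpl7 in WT against 2.75% ± 1.07 in KO (SD, n = 3 per genotype), and their difference turned negative, −0.26 and −0.21 percentage points, without WT 2 or KO 1. Rps4l took between 0.127% and 0.573% of the sum with Rps4x over the 6 libraries. With Rps27rt left out of the sum, the share of Rps27l was 97.5% in WT and 97.1% in KO, so the sign of the difference between genotypes was opposite.

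**Figure D4:**
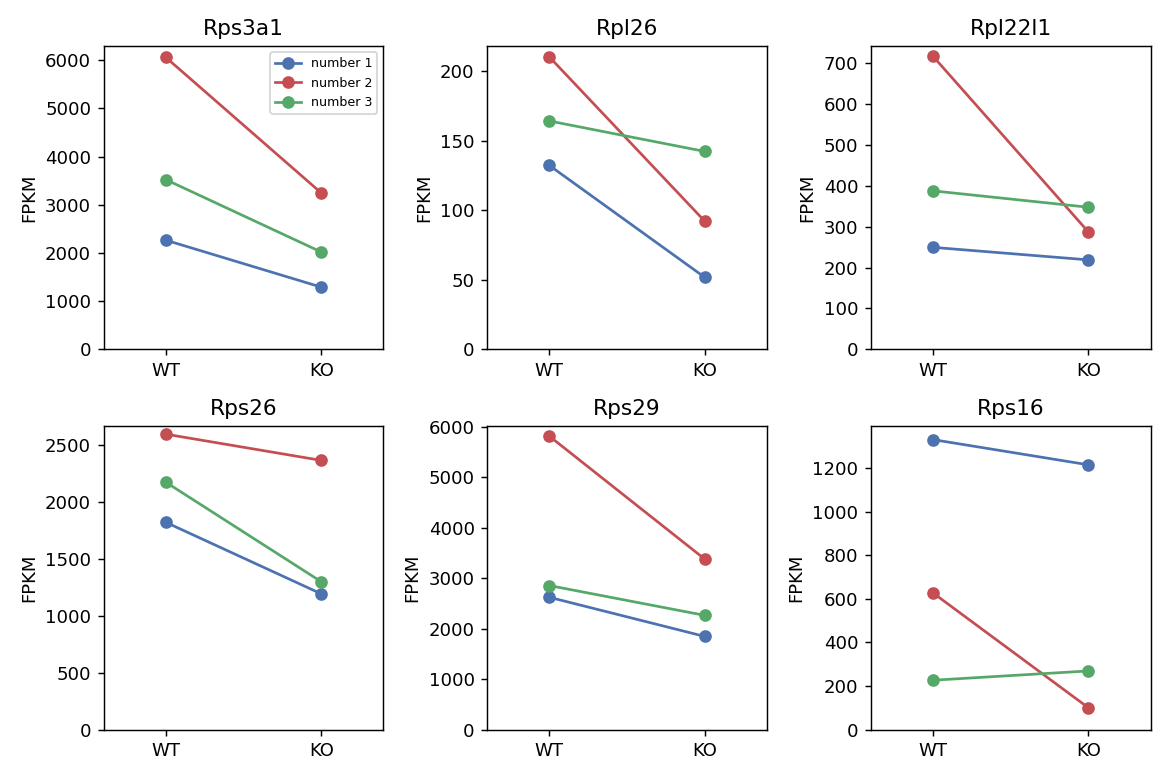
FPKM of 6 members in each WT library joined to the KO library of the same replicate number, with axes starting at 0. Each of the 3 lines of Rps3a1 ends lower in KO, the line of number 2 is the steepest for Rpl22l1, and number 1 is the highest in both genotypes for Rps16.

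At the other end, 7 members had a higher mean in KO, by small amounts. The 5 with the smallest p among them were Rps4l at 0.07 (SE 0.35), Rplp2 at 0.06 (SE 0.33), Rps2 at 0.05 (SE 0.35), Rps9 at 0.03 (SE 0.32) and Rpl9 at 0.03 (SE 0.42). Rps2 and Rps9 are small subunit proteins near the messenger RNA entry, and Rpl9 is a large subunit protein. Rps2 stood at 2879, 3174 and 3371 FPKM in WT and at 2537, 4376 and 3089 in KO. Only KO 2 exceeded all WT libraries. All 5 turned negative when libraries were rescaled by the median of ratios, to between −0.01 and −0.06.

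The stalk of the large subunit, which recruits elongation factors, is built of Rplp0, Rplp1 and Rplp2. Rplp0 stood at 1970, 2680 and 2372 FPKM in WT and at 1631, 3388 and 2126 in KO, a difference of −0.03 (SE 0.37). Rplp1 was lower in KO in all 3 pairs, by −0.27, −0.32 and −0.29, with a difference of −0.29 (SE 0.41). Rplp2 was at 0.01, 0.50 and −0.32 in the 3 pairs. The 3 stalk genes thus had different signs in pair 2, and none passed the test. Of 8 members that line the peptide exit tunnel or its exit, among them Rpl4, Rpl17, Rpl26 and Rpl39, 8 had a lower mean in KO. In all 3 pairs 6 of them were lower, and their median was −0.29. Over all 81 tested members, 91.4% had a lower mean and 56.8% were lower in all 3 pairs, with a median of −0.23. Over all genes tested these shares were 36.6% and 8.68%.

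Rpl5 and Rpl11 join 5S ribosomal RNA in a particle that binds Mdm2 and links ribosome assembly to p53. Rpl5 stood at 862, 2490 and 1399 FPKM in WT and at 757, 1975 and 1203 in KO, and Rpl11 at 1741, 4524 and 2304 in WT and at 1485, 3117 and 1962 in KO. Both were lower in KO in all 3 pairs. The differences were −0.25 (SE 0.48) for Rpl5 and −0.33 (SE 0.45) for Rpl11, and neither passed the test.

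Of 13 members whose human counterparts are altered in Diamond-Blackfan anaemia or the 5q- syndrome, 13 had a lower mean in KO and 11 were lower in all 3 pairs, with a median difference of −0.27. Of all 81 tested members, 74 had a lower mean and 46 were lower in all 3 pairs, with a median of −0.23. The shares over all genes tested were 36.6% and 8.68%. None of the 13 passed. Rps19, the member altered most often in that anaemia, stood at 1321, 3017 and 1783 FPKM in WT and at 1248, 2315 and 1611 in KO, a difference of −0.20 (SE 0.40). Rps14, the 5q- gene, stood at 1950, 6244 and 2774 in WT and at 1729, 3960 and 2986 in KO, a difference of −0.24 (SE 0.51), and was higher in KO in pair 3. Rps7, a small subunit protein, differed by −0.32 (SE 0.50). Rps24, Rpl35a, Rpl15 and Rps10 had differences between −0.27 and −0.09.

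Rps27a encodes a fusion of ubiquitin with a small subunit protein, so its transcript supplies both. It stood at 1720, 4287 and 2134 FPKM in WT and at 1521, 2858 and 2085 in KO, a difference of −0.26 (SE 0.43), lower in all 3 pairs.

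Rps16, a small subunit protein of the decoding region, was singled out after its values were seen. It stood at 1331, 628 and 227 FPKM in WT 1, 2 and 3 and at 1215, 101 and 269 in KO 1, 2 and 3. The libraries numbered 1 were thus the highest in both genotypes, where they were the lowest for most members. Its difference was −0.84 (SE 0.89), and the pairs ranged from −2.63 to 0.25. None of the rows that could be searched matched its coding sequence at the identity used, and the source of this pattern was not found.

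Of the tested members 4 lie on chromosome 3, as does Txnip: Rpl22l1, Rpl34, Rps27 and Rps3a1. Their promoters are shown because they share the chromosome of the deleted gene, and because Rps3a1 and Rpl22l1 are among the members with the lowest p. Each line gives the 100 bases before the start annotated by RefSeq (GRCm38.p6), on the strand of the gene. Capitals mark CCGGAAG, a motif bound by ETS factors, or TATAAA, the TATA box, on either strand, and in Rpl22l1 matches on both strands overlap.
Rps3a1: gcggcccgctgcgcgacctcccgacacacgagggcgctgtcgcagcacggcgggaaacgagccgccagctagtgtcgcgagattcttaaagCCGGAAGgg
Rpl22l1: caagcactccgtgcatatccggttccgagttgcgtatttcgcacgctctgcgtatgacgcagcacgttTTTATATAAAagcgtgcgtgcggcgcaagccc
Rps27: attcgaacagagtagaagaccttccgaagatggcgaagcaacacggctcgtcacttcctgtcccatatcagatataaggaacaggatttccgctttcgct
Rpl34: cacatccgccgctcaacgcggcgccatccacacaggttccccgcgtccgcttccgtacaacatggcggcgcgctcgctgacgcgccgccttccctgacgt

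These stretches lie at chr3:86142669-86142768 (minus strand) for Rps3a1, chr3:28805408-28805507 (plus) for Rpl22l1, chr3:90213649-90213748 (minus) for Rps27 and chr3:130730399-130730498 (minus) for the first of the starts listed for Rpl34. The differences of the 4 genes were −0.84, −0.55, −0.11 and −0.40. Rps27 and Rpl34 are also 2 of the 4 members outweighed by a copy, and those copies lie on other chromosomes.

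Promoters were on record for 63 members, and the 250 bases before the start were searched on both strands. CCGGAAG occurred in 19 of the 63 (30.2%), against 17% of the tested genes with a promoter and 7.83% of all 27025 genes of the reference. TATAAA occurred in 4 members (6.35%), against 7.34% of tested and 14.3% of all genes. These shares count letters in a window and are no evidence of binding.

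Of ribosomal proteins outside the naming pattern, Rps27rt differed by −0.49 (SE 0.57), Rpl36al by −0.26 (SE 0.41), Gnb2l1 by −0.05 (SE 0.39) and Fau by −0.01 (SE 0.39), and none passed. Lists of other translation genes had medians closer to 0 than the members, but below the median of 0.06 over all genes tested. Of all genes tested, 36.6% had a lower mean. Translation factors and related genes with TOP messenger RNAs were lower in 10 of 16, with a median of −0.05. The 2 of smallest p were Npm1, a nucleolar chaperone, at −0.32 (SE 0.32) and Eif3e, an initiation factor subunit, at −0.32 (SE 0.36). Initiation factors were lower in 17 of 27, with Eif1a at −0.29 (SE 0.21) and Eif2s1 at −0.24 (SE 0.19).

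Ribosome biogenesis factors were lower in 52 of 79, with a median of −0.08, and RNA polymerase I genes in 9 of 15, with a median of −0.01. Of all genes tested 36.6% were lower, with a median of 0.06. Lower in all 3 pairs were 16 of the 79 factors and 2 of the 15 polymerase I genes, against 8.68% of all genes. Riok2, a kinase that matures the small subunit, stood at 19.3, 24.6 and 21.1 FPKM in WT and at 16.1, 17.9 and 17.2 in KO, with no overlap between the groups. Its difference was −0.32 (SE 0.20). In 4 of the 79 factors all KO libraries lay below all WT libraries, against 1.03% of all genes tested. Nop10, a component of the particles that modify ribosomal RNA, was at −0.45 (SE 0.31), and the polymerase I subunits Znrd1 and Twistnb at −0.33 (SE 0.25) and −0.18 (SE 0.20). In limma 0 genes of these lists passed adjustment, with or without the replicate block.

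How large the ribosomal protein difference appeared depended on how libraries were set to a common scale. Rescaling to a common FPKM total gave medians of −0.06 for the large and −0.05 for the small subunit with the median of all genes at 0.22, and −0.12 and −0.11 with Rpph1 and Rmrp left out of the total. Rescaling by the median of ratios gave −0.32 and −0.31 with all genes at −0.02, and 81 of 81 members were then lower. Quantile normalization gave −0.03 and −0.01 with all genes at 0.01, and 45 of 81 were lower. Quantile normalization sets the top ranks of each library to equal values, and 57 of the 100 rows with the highest mean FPKM are members. The part of this in the smaller difference was not tested. Under each of these scalings both medians lay below the median of all genes, and 0 members passed adjustment.

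**Figure D5:**
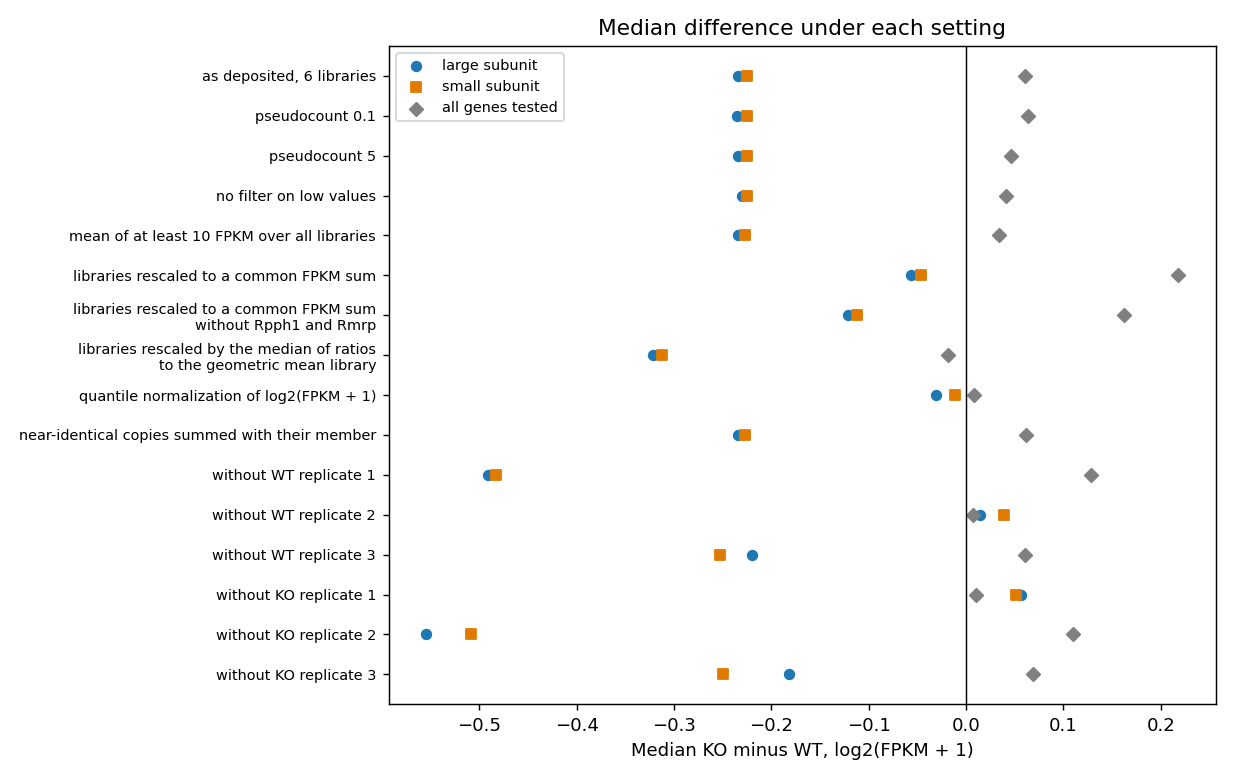
Median KO minus WT difference of log2(FPKM + 1) over large subunit members (blue circles), small subunit members (orange squares) and all tested genes (grey diamonds) under each setting without a replicate block. Both subunit medians lie near −0.23 as deposited, approach 0 with quantile normalization, and pass above 0 without WT 2 or without KO 1.

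Markers of other blood cells also varied between the libraries. Of the 11249 genes tested, 7131 had a higher mean in KO and 36.6% a lower mean. Eosinophil markers had lower means in KO in 7 of 7 tested, with summed FPKM between 446 and 769 in WT and between 206 and 588 in KO. Monocyte and macrophage markers had higher means in 11 of 12, with sums between 842 and 1967 in WT and between 1349 and 1883 in KO. Neutrophil markers had lower means in 9 of 11 tested, with sums between 5872 and 7502 in WT and between 3890 and 8884 in KO. Mast cell and basophil markers had lower means in 9 of 11 tested, with sums between 1784 and 2628 in WT and between 1435 and 2309 in KO. Erythroid markers had lower means in 7 of 8 tested, with sums between 171 and 273 in WT and between 138 and 263 in KO, and Hba-a2 was listed at 0 throughout. Stem and progenitor markers had higher means in 6 of 8 tested, although the summed FPKM of all 9 was lower in KO in each pair. Those sums were 266, 357 and 285 in WT 1, 2 and 3 and 216, 350 and 262 in KO 1, 2 and 3. Megakaryocyte markers had higher means in 9 of 15. Lymphocyte markers had lower means in 2 of 3 tested, with sums between 113 and 140 in WT and between 111 and 116 in KO. The T cell and B cell genes Cd3e and Pax5 were listed at 0 in all libraries. The part of these cells in the levels of the ribosomal protein transcripts was not tested.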

How the data were processed

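The authors deposited FPKM values per gene symbol, with 2 decimals, for 6 libraries. Per the submitters' processing notes, FastQC, Trimmomatic 0.39, STAR 2.7.0a and RSEM 1.2.31 were used with mm9. For their settings and the annotation: not given in the sources used here. Estimation by RSEM divides reads between similar transcripts, so rows of near-identical genes depend on each other.

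The members and gene lists were chosen with earlier results of these data known. The 11249 genes that reached 1 FPKM in 3 or more libraries were tested on log2(FPKM + 1), two-sided, with limma 3.58.1 in R 4.3.3 (eBayes with a trend), Benjamini-Hochberg adjustment over all of them and a threshold of 0.05. The procedure was tested on simulated data. Named genes were Txnip, members passing in either fit, the 5 of smallest p per direction, the 3 highest and 3 lowest, those on the chromosome of Txnip, the fixed lists of roles, and 2 genes of smallest p from each other list.

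Libraries of the same number deviated together from their group means over the tested genes, with correlations of 0.81, 0.59 and 0.38 for numbers 1, 2 and 3, so the number was used as a block in the alternative fit. The labels do not say what the number means. Copies were found with BLAST 2.17.0. Amino acid sequences and mm9 coordinates were not used here, and values of some single genes and details of the culture are not reported here. Alternatives were the pseudocount, the filter, library scaling, the block, values relative to the median member, eBayes without a trend, leaving out libraries or pairs, and, added after seeing the data, sums with copies.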

Additional observations from a re-analysis of the deposited data

How the results depend on the processing

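With 3 libraries per genotype, a value can rest on 1 of them, and depth is known only approximately. The count of members passing adjustment was 0 in limma under every setting with all 6 libraries, and in each fit that left out a single library. With the replicate block it was 0, and between 1 and 4 when a pair was left out. Without pair 1 it was 1 (Rps16), against 0.24% of all genes lower. Without pair 2 it was 4 (Rps3a1, adjusted p 0.000149, Rps26, 0.00162, Rpl26, 0.012, and Rpl36, 0.0288), against 0.427%. Without pair 3 it was 2 (Rps16 and Rpl26, adjusted p 6.6e-05 and 8.09e-05), against 0.444%. Rps16 passed without pair 1 although its pairs 2 and 3 differed in sign. The fits without pair 1 or without pair 3 took the spread wholly from other genes.

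The median over large subunit members was −0.056 with a common FPKM sum, −0.12 with a common sum without Rpph1 and Rmrp and −0.030 with quantile normalization, and ranged from −0.554 to 0.056 when a library was left out. For the small subunit it was −0.047 with a common sum, −0.11 with a common sum without Rpph1 and Rmrp, −0.31 with the median of ratios and −0.011 with quantile normalization, and ranged from −0.508 to 0.052 when a library was left out. Without a library, the difference in the share of Rps27l ranged from −0.59 to 1.17, and that of Rpl7l1 from −0.26 to 0.89 percentage points. Of the larger differences followed across the settings, none turned sign. With a library left out, Rpl26 ranged from −1.25 to −0.53, Rps3a1 from −1.18 to −0.47 and Rpl22l1 from −0.91 to −0.15. Rps26 ranged from −0.80 to −0.31, Rps29 from −0.78 to −0.18 and Rpl34 from −0.67 to −0.017. Rps16, with a difference of −0.84, was not followed in this way, and its pairs ranged from −2.63 to 0.25. Among the named members followed across the settings, signs turned in 6 with small differences. Of all 81 tested members, 7 had a higher mean in KO as deposited. That count was 48 without WT 2, 49 without KO 1, 29 with a common FPKM sum and 36 with quantile normalization. With the median of ratios it was 0. Rps4l and Rps27 were not tested with a mean of at least 10 FPKM. With the median of ratios, with or without the replicate block, Rps4l was at −0.0064, Rplp2 at −0.025, Rps2 at −0.036, Rps9 at −0.055 and Rpl9 at −0.060, and Rps4l was at −0.028 with quantile normalization. Rps27 was at 0.052 with a common sum and 0.039 relative to the median member, with or without the block. Without a library, Rps4l ranged from −0.135 to 0.44, Rplp2 from −0.139 to 0.17, Rps2 from −0.16 to 0.23, Rps9 from −0.15 to 0.16, Rpl9 from −0.32 to 0.38 and Rps27 from −0.48 to 0.13. In block fits, Rps4l was at −0.054 without pair 1, and without pair 2 Rps4l was at −0.29, Rplp2 at −0.157, Rps2 at −0.154, Rps9 at −0.141 and Rpl9 at −0.187. The cause was not tested. The block changed no other call.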
